A study of Mus musculus with 6 samples.

Results

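Messenger RNA of 7 fibroblast growth factor (FGF) ligand genes was measured at the proximal end of the mouse incisor, the growing end of a tooth that never stops growing: Fgf1, Fgf2, Fgf3, Fgf7, Fgf9, Fgf10 and Fgf18. These genes were chosen by name, as members of the family known from teeth and their nerves, and they make up 7 of the 19060 genes with counts. RNA was sequenced from 3 control samples (Fgfr1fl/fl, which the labels call wild type) and 3 mutant samples (Gli1CreER;Fgfr1fl/fl, written Gli1-Cre;Fgfr1fl/fl in the labels), on a mixed background. Both groups carried the loxP-flanked Fgfr1 alleles, both received tamoxifen at 1 month of age, and both were collected 1 week after tamoxifen. In the mutant the Cre is active only in cells that express Gli1, so whole-tissue RNA still holds Fgfr1 transcripts from other cells. Nothing in the labels says how many mice or incisors made a sample, so p-values measure the spread between these samples. In RNA of whole tissue, fewer cells of a type and less RNA per cell cannot be told apart.

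FGF ligands bind receptor tyrosine kinases together with heparan sulfate chains on the cell surface, and the bound receptor signals through the adaptor FRS2, the MAPK pathway and the ETS family of transcription factors. In the incisor, FGF signals pass between the dental epithelium, which makes enamel, and the dental mesenchyme, which makes dentin and pulp. FGF3 and FGF10 are known as mesenchymal signals that keep the epithelial stem cells of the cervical loop, FGF9 as an epithelial signal to the mesenchyme, and FGF1 and FGF2 as ligands without a conventional signal peptide.

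The libraries were not alike in depth. Controls held 31060222 to 32712448 counts and mutants 5276557 to 11819576, and the share of genes at 0 was 3.83 to 3.96% in controls and 17.1 to 30.3% in mutants. Mutant 1 was the shallowest, with 30.3% of genes at 0, and the fold change of each ligand is also given without it. Fgfr1, the deleted gene, was measured at 528, 923 and 433 CPM (read counts per unit of library size after upper-quartile scaling, a relative level) in controls and at 148, 317 and 261 CPM in mutants, without overlap. Its log2 fold change was -1.37 (standard error, SE, 0.40, adjusted p = 0.088), with an unadjusted p under 0.05. All 12 dental epithelium markers were detected in mutant 1, and of the 9 dental mesenchyme markers 1, Barx1, was at 0 there. The summed level of the 12 epithelial markers, most of it from the enamel matrix genes Amelx and Ambn, was 85993 to 121879 CPM in controls and 32207 to 70541 CPM in mutants. This sum was lower in all mutants. Taken singly, 5 of the 12 were lower in all mutants, beside 16.3% of all genes tested. None of the 12 had an adjusted p under 0.05 (6.79% of all genes tested). Only 1, Krt15, had an unadjusted p under 0.05 with a change over 1.5-fold (19.8% of all genes tested). Positive values were found for 2, Epcam (log2 fold change 0.58) and Trp63 (0.20). The 9 mesenchymal markers summed to 319 to 541 CPM in controls and 434 to 538 CPM in mutants. The 10 skeletal muscle markers summed to 10.5 to 2829 CPM in controls and 168 to 6528 CPM in mutants, with the highest sum in mutant 1. The part of these markers in the ligand values was not tested.

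Of the 7 ligands, 6 passed the filter on low counts (edgeR's filter, a minimum count of 10 in enough samples) and were tested with edgeR's quasi-likelihood test. None of the 6 had an adjusted p under 0.05, a threshold that 6.79% of the 15826 genes tested passed. None passed the looser threshold of an unadjusted p under 0.05 with a change over 1.5-fold either, which 19.8% of genes passed, and 0 of the 6 had an unadjusted p under 0.05. DESeq2 and limma-voom each gave 1 ligand, Fgf2, an unadjusted p under 0.05, and 0 an adjusted p under 0.05. In 2 of the 7 ligands, Fgf2 and Fgf18, all mutant values lay below all controls, which held for 16.3% of the genes tested. Fgf18 was not among the genes tested. Its 0 in mutant 1 allows up to 0.654 CPM, above its controls (0.384 to 0.465 CPM). In 1 of the 7, Fgf9, all mutants lay above all controls, which held for 14.1%. In the other 4 the groups overlapped.

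**Figure D1:**
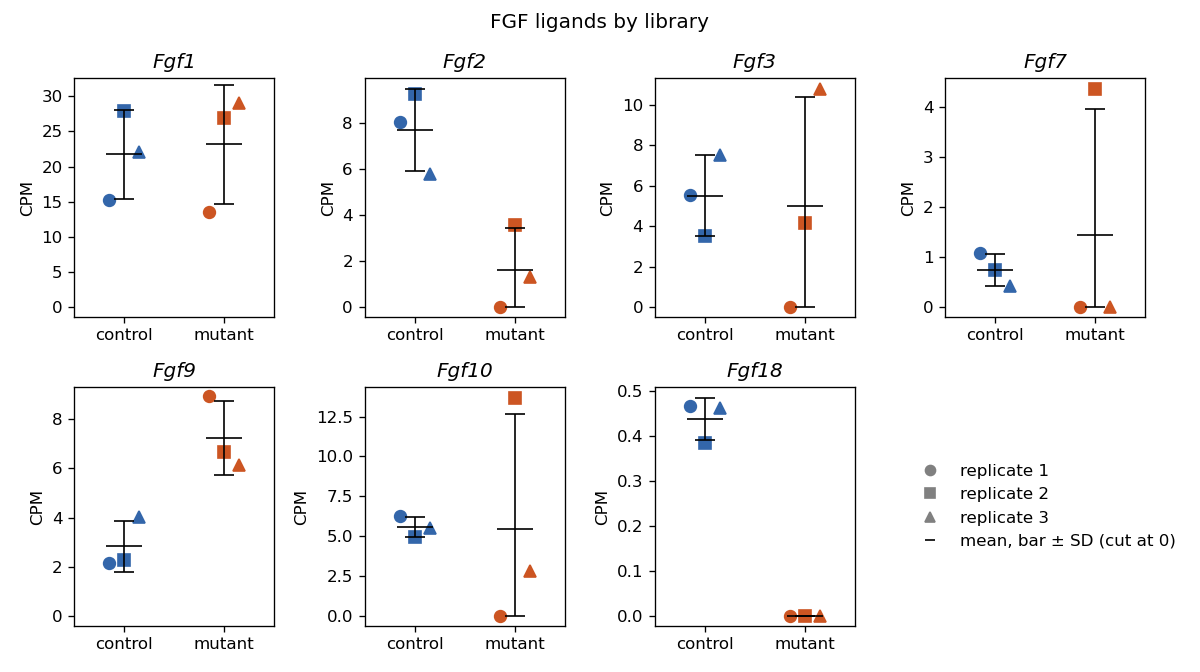
CPM of each ligand (vertical axis, a scale of its own for each gene) in the 3 control and 3 mutant samples, with the mean and SD of each group as lines, the lower bar ending at 0 where the SD is larger than the mean. The mutant points of Fgf2 and Fgf18 all lie below the control points, and those of Fgf9 above. The mutant points of Fgf3, Fgf7 and Fgf10 spread from 0 to above the controls.

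The promoters of Fgf9 and Fgf18 are printed because these are the ligands on either side whose upstream window held no annotated exon. Their mutant values lay all above (Fgf9) or all below (Fgf18) the control values. Each sequence is the 250 bases before the RefSeq transcription start on GRCm38.p6, 5′ to 3′ on the gene's strand, at chr14:58072436-58072685 (plus strand) for Fgf9 and chr11:33147401-33147650 (minus strand) for Fgf18. Capitals mark a match on either strand to any of 3 motifs, the GC box GGGCGG, the TATA box TATAAA and the ETS core CCGGAA, which do not overlap one another here.
Fgf9: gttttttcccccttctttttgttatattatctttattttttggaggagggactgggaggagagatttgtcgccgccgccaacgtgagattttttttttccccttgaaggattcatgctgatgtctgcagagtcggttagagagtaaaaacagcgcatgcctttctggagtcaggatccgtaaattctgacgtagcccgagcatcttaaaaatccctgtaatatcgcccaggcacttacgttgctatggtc
Fgf18: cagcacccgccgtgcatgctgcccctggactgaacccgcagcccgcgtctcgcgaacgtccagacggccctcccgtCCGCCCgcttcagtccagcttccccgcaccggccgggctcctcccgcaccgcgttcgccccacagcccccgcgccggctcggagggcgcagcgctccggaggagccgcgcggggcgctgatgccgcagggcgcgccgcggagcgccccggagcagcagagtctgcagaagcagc
In the GENCODE annotation used for gene positions, Fgf9 starts at chr14:58070547, upstream of its window, so the window lies inside the gene. The Fgf9 window was AT-rich, with 44.8% G and C and no match to any of the 3 motifs. The Fgf18 window had 77.2% G and C and 1 GC box. Over all 32851 RefSeq promoter windows of this length the median was 52.4% G and C, 32.7% held a GC box, 12.4% a TATA box and 12.03% the ETS core. Of the other ligand windows with an entry, Fgf2 (62.4% G and C) and Fgf10 (61.2%) held 1 GC box each, and Fgf3 (55.2%) and Fgf7 (43.6%) held none of the 3 motifs. The Fgf2 window lies within annotated exons over all its 250 bases. A match is only a run of letters, and its absence says nothing of the factor.

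The level of each ligand was compared with the others after division by the length of its merged exons, as CPM per kilobase. In controls Fgf1 was the highest, at 3.97 ± 1.15 CPM per kilobase (SD, n = 3), followed by Fgf3 at 2.37 ± 0.86. Fgf10 (1.22 ± 0.14) and Fgf2 (1.13 ± 0.26) came next, then Fgf9 (0.611 ± 0.223), Fgf18 (0.368 ± 0.039) and Fgf7 (0.231 ± 0.099). Among neighbours in this order, the ranges over the control samples did not overlap between Fgf3 and Fgf10 and between Fgf9 and Fgf18. The ranges of Fgf1 and Fgf3, Fgf10 and Fgf2, Fgf2 and Fgf9, and Fgf18 and Fgf7 overlapped, although within each control sample Fgf1 was above Fgf3 and Fgf18 above Fgf7. With the longest transcript in place of merged exons the order was the same, and Fgf1 (5.45) no longer overlapped Fgf3.

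**Figure D2:**
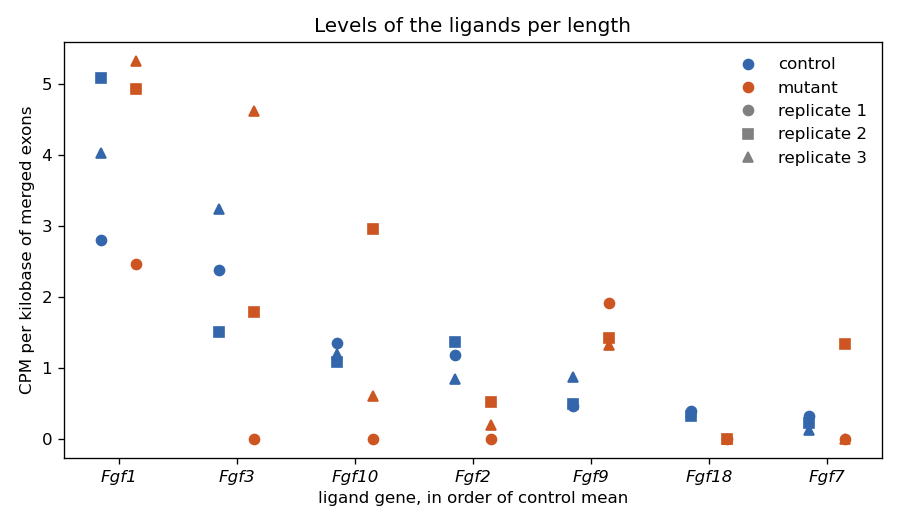
CPM per kilobase of merged exons (vertical axis) for the 7 ligands in order of their control mean, with each control and mutant sample as a point. Fgf1 has the highest mean in both groups, and Fgf9 lies above Fgf2 in all mutants but below it in the mean of controls.

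As a share of the ligands' summed level per kilobase, Fgf1 made up 31.4, 50.4 and 37.6% in controls and 56.3, 38.0 and 44.1% in mutants. Fgf9 made up 5.26, 4.91 and 8.11% in controls and 43.7, 11.0 and 10.9% in mutants. The sum itself was 8.92, 10.1 and 10.7 CPM per kilobase in controls and 4.39, 13.0 and 12.1 in mutants. Mutant 1 thus had the lowest sum and mutants 2 and 3 the highest, and in mutant 1 Fgf1 and Fgf9 were the only ligands with counts.

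Fgf1, the acidic FGF, binds every FGF receptor and is made by sensory neurons among other cells. The gene lies on chromosome 18, minus strand. It had 526, 1014 and 763 counts in controls and 62, 316 and 289 counts in mutants, which is 15.3, 27.8 and 22.01 CPM in controls and 13.5, 26.9 and 29.1 CPM in mutants. The groups overlapped throughout. The log2 fold change was 0.10 (SE 0.42, adjusted p = 0.93), without mutant 1 it was 0.35 (adjusted p = 0.549), and its sign turned in 4 of the 17 alternative settings tried. The sensory neuron markers Calca (calcitonin gene-related peptide), Avil and Trpv1 were at 0 in all mutants, and none of them exceeded 2.88 CPM in a control. Control counts were 58, 82 and 100 for Avil and 32, 18 and 20 for Calca. Of the 5 markers on this list that were tested, 2, Avil (adjusted p = 0.046) and Calca (0.047), had an adjusted p under 0.05, beside 6.79% of all genes. Both passed the filter on low counts through the controls only. A count of 0 allows up to 0.654, 0.256 and 0.302 CPM in mutants 1, 2 and 3. Avil's controls (1.69 to 2.88 CPM) lay above these limits, but Calca's controls 2 and 3 (0.494 and 0.577 CPM) lay below that of mutant 1. The control mean of Trpv1, 0.209 CPM, lay below all 3 limits, so its 0 does not show a lower level. Others on the list were not at 0: Tac1 (substance P) was at 3.49 to 10.9 CPM in controls and at 0, 12.7 and 16.7 CPM in mutants, Prph was at 0.247 CPM or less in controls and at 0, 0 and 2.72 CPM in mutants, and Gfra2 overlapped, at 9.69 to 23.3 CPM in controls and 7.19 to 23.3 CPM in mutants. The summed level of the 8 sensory neuron markers with values, mostly the broad neuronal tubulin gene Tubb3, was 83.4 to 138 CPM in controls and 50.6 to 104 CPM in mutants. Cell bodies of these neurons lie in the trigeminal ganglion, outside the tissue that was sequenced.

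Fgf2, the basic FGF, also binds several receptors and is kept in the matrix by heparan sulfate. The gene lies on chr3:37348346-37410108, plus strand, and 640 of its exon bases (9.44%) are also exons of Nudt6 on the other strand. The strand of the reads is not given in the sources used here, so reads from this stretch cannot be told apart. Fgf2 had 277, 337 and 200 counts in controls and 0, 42 and 13 counts in mutants. Scaled, these were 8.06, 9.25 and 5.77 CPM in controls and 0, 3.58 and 1.31 CPM in mutants, so the groups did not overlap. The log2 fold change was -2.20 (SE 1.24, adjusted p = 0.383). Without mutant 1 it was -1.66 (SE 0.69, adjusted p = 0.176), with an unadjusted p under 0.05. It was negative in all 17 alternative settings and had an adjusted p of 0.0924 or more in each, the lowest of them from limma-voom.

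Fgf3 is a ligand of the epithelial form of FGFR2 and a mesenchymal signal of the incisor. The gene lies on chr7:144838083-144844436, plus strand. It had 190, 128 and 261 counts in controls and 0, 49 and 107 counts in mutants. In CPM the controls were 5.53, 3.51 and 7.53 and the mutants 0, 4.18 and 10.8. The mutants thus spanned values below and above all controls, and the log2 fold change was -0.14 (SE 1.30, adjusted p = 0.97). Without mutant 1 it was 0.42 (adjusted p = 0.73).

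Fgf10, which shares that receptor, lies on chr13:118669791-118792115, plus strand, and 123 of its exon bases (2.67%) overlap the antisense gene Gm16263. It had 215, 182 and 192 counts in controls, the narrowest relative spread among the tested ligands, and 0, 160 and 28 counts in mutants. In CPM the controls were 6.25, 4.99 and 5.54 and the mutants 0, 13.6 and 2.82. One mutant lay above all controls and the others below, and the log2 fold change was -0.01 (SE 1.33, adjusted p = 0.997). Without mutant 1 it was 0.54 (adjusted p = 0.679), and without mutant 2 it was -1.94, so the direction rested on which mutant was kept.

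Fgf7, keratinocyte growth factor, is the third member of this subfamily measured and lies on chr2:126034658-126091185, plus strand. It had 37, 27 and 15 counts in controls and 0, 51 and 0 counts in mutants, which is 1.08, 0.741 and 0.433 CPM against 0, 4.35 and 0 CPM. Its log2 fold change of 0.98 (SE 1.72, adjusted p = 0.828) came from mutant 2 alone, and without mutant 1 it was 1.52 (adjusted p = 0.571). Without mutant 2, both remaining mutants are at 0, where the controls' mean would give only 3.44 and 7.45 counts.

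Fgf9 lies on chr14:58070547-58112720, plus strand, and encodes a ligand that the dental epithelium sends to mesenchymal receptors. It had 75, 84 and 140 counts in controls and 41, 78 and 61 counts in mutants. In CPM the controls were 2.18, 2.30 and 4.04 and the mutants 8.93, 6.65 and 6.14. All mutants lay above all controls after scaling, although their raw counts did not. The log2 fold change was 1.35 (SE 0.77, adjusted p = 0.390), and without mutant 1 it was 1.15 (adjusted p = 0.302). It stayed positive in all 17 alternative settings, and correcting for the length and GC content of transcripts brought it to 0.78 (adjusted p = 0.696).

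Fgf18, a ligand of the FGF8 subfamily best known from cartilage and bone, lies on chr11:33117430-33147400, minus strand. It had 16, 14 and 16 counts in controls and 0 in all 3 mutants, and it did not pass the filter on low counts. Its control level was 0.437 ± 0.046 CPM (SD, n = 3). A count of 0 allows up to 3 counts in each mutant library, which is 0.654, 0.256 and 0.302 CPM. Against the mean of these limits, 0.404 CPM, Fgf18 was at least 1.08-fold lower in mutants. The limit in mutant 1 lies above all controls, so that library alone does not show a lower level. Without the filter edgeR gave an adjusted p of 0.105, without mutant 1 it was 0.0572, and the fitted fold change there is no bound because all mutants are at 0.

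How many counts the depth allowed was worked out for each ligand by carrying the controls' mean CPM to each mutant library. In mutant 1 this gave 35.3 counts for Fgf2, 25.3 for Fgf3 and 25.7 for Fgf10, and each was at 0. Of the 11606 genes for which the controls' mean gave at least 20 counts in mutant 1, 940 (8.10%) were at 0 there. The share was 3.33% in mutant 2 and 4.39% in mutant 3, each over its own such genes. In mutant 1, 9258 of the 11606 genes were given at least 50 counts, and only 301 of these (3.25%) were at 0. Genes given 20 to 50 counts there, as Fgf2, Fgf3 and Fgf10 were, were thus at 0 more often than 8.10%. Among the ligands that reached 20 counts in mutant 1, Fgf2, Fgf3 and Fgf10 were at 0, and Fgf1, at 99.6, had 62. Why these ligands were at 0 was not tested. For Fgf18 the same step gave 2.01, 5.13 and 4.34 counts, so the difference of Fgf18 was close to what this depth can show. For Fgf9 it gave 13.0, 33.3 and 28.2 counts, below the 41, 78 and 61 seen.

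**Figure D3:**
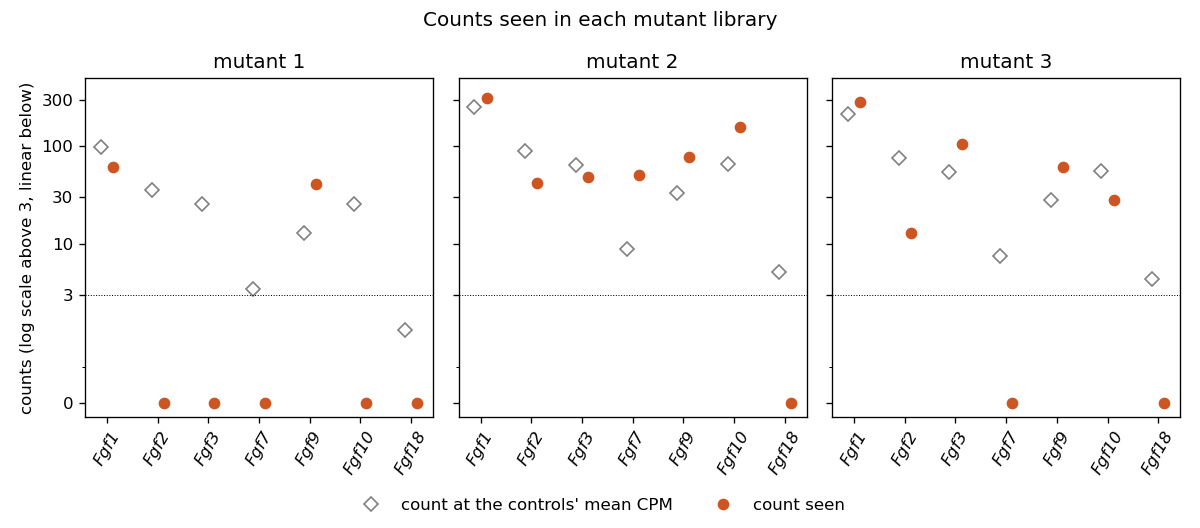
Counts of each ligand in each mutant library (filled points, vertical axis on a log scale above 3 and linear below) beside the count that the controls' mean CPM gives at that library's size (open diamonds), with a dotted line at the limit of 3 counts. In mutant 1 all ligands but Fgf1 and Fgf9 are at 0, and Fgf9 lies above its diamond in all 3 libraries.

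**Figure D4:**
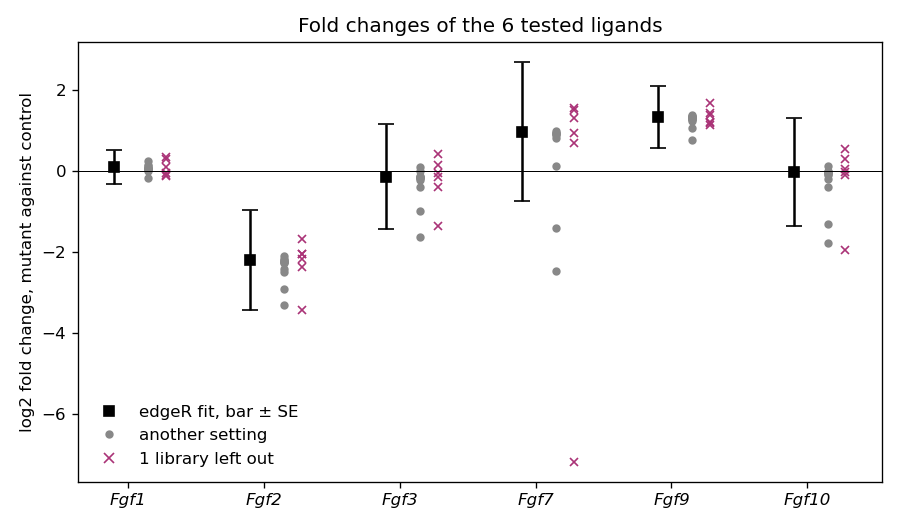
Log2 fold change of each of the 6 tested ligands, mutant against control (vertical axis), from the edgeR fit with its SE (squares), under other settings (grey points) and with 1 library left out (crosses). Fgf2 stays below 0 and Fgf9 above 0 throughout, and the other 4 have values on both sides.

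Ratios of counts within a library do not depend on scaling, and 4 were compared by an exact permutation test (two-sided), which with 3 against 3 cannot go below 0.10. A ratio known only as a limit entered the test at that limit. The ratio of Fgf1 to Fgf2 was 1.90, 3.01 and 3.81 in controls and 7.53 and 21.8 in mutants 2 and 3. In mutant 1 it was at least 20.7, with Fgf2 set to the limit of 3 counts. All mutants thus lay above all controls (exact permutation p = 0.10, the smallest this design allows, and 0.40 adjusted over the 4 ratios). The ratio of Fgf9 to Fgf10 was 0.349, 0.462 and 0.729 in controls, and at least 13.7, 0.487 and 2.18 in mutants (exact permutation p = 0.20, adjusted 0.40). The ratios of Fgf3 to Fgf10 and of Fgf7 to Fgf10 could be formed in mutants 2 and 3 only. They were tested with 3 against 2, where the smallest possible p is higher. Fgf3 to Fgf10 was 0.703 to 1.36 in controls and 0.306 and 3.82 in mutants (exact permutation p = 1.00, adjusted 1.00). Fgf7 to Fgf10 was 0.0781 to 0.172 in controls, 0.319 in mutant 2 and at most 0.107 in mutant 3 (exact permutation p = 0.60, adjusted 0.80).

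Among the other FGF family genes, 6 had values. Fgf8, the early epithelial signal of tooth development, was at 0.220 to 0.490 CPM in controls and at 0, 1.36 and 0 CPM in mutants. Fgf16, a relative of Fgf9, was at 0.741 to 2.31 CPM in controls and at 0, 0.511 and 5.43 CPM in mutants. Fgf11, Fgf12, Fgf13 and Fgf14 encode FGF homologous factors, which stay in the cell and act on sodium channels rather than on FGF receptors. Fgf13 was the most abundant of them, at 17.4, 17.0 and 11.5 CPM in controls and 18.3, 17.0 and 26.1 CPM in mutants, which overlap. Fgf11 (log2 fold change 0.19) and Fgf12 (1.10) also overlapped between the groups. Fgf14 was the only gene of the family to pass an adjusted p under 0.05 (0.046), with 24, 24 and 18 counts in controls and 0 in all mutants. Against the mean of the mutant libraries' limits of 3 counts, 0.404 CPM, it was at least 1.55-fold lower. Its control mean was 0.625 CPM, below the limit of 0.654 CPM in mutant 1. The difference of Fgf14 was thus close to what the mutants' depth can show. The remaining 9 family genes of the list were not analysed here.

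The receptors and co-receptors had 6 genes tested, of which 0 passed an adjusted p under 0.05 (6.79% of all genes tested) and 2, both lower, passed p under 0.05 with over 1.5-fold (19.8% of all genes tested). These were Fgfr1, given above, and Fgfr3 (109, 122 and 48.4 CPM in controls, 52.5, 57.1 and 19.8 CPM in mutants, log2 fold change -1.11, adjusted p = 0.237). Fgfr4 was the only one with a positive value (0.23, adjusted p = 0.93). Fgfr2, which encodes the receptor of FGF3, FGF7 and FGF10, was at 87.5, 115 and 84.5 CPM in controls and at 53.6, 74.5 and 69.9 CPM in mutants, lower in all mutants (log2 fold change -0.53, adjusted p = 0.263). The median log2 fold change of the list was -0.82, beside -0.04 over all genes tested. After the correction for length and GC content it was -0.42, beside -0.11. The 1 receptor gene that then passed the looser threshold was the deleted Fgfr1 (-0.83). Both medians of the list include Fgfr1.

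Genes of the heparan sulfate that FGF ligands need for receptor binding were considered next. Of 12 proteoglycan and FGF binding protein genes, 1 was higher and 1 lower at p under 0.05 with over 1.5-fold, a threshold that 19.8% of all genes passed: Sdc4, syndecan-4 (log2 fold change 0.70, adjusted p = 0.178), and Agrn, agrin (-0.85, adjusted p = 0.174). Sdc2 (0.03) and Sdc3 (-0.82, adjusted p = 0.257) did not pass. Of 12 genes for enzymes that build or trim the chains, 4 were lower and 0 higher at that threshold, and 1 passed it after the correction for length and GC content. They were led by Ext2, a subunit of the chain polymerase, at 143, 137 and 141 CPM in controls and 80.8, 83.3 and 80.0 CPM in mutants (log2 fold change -0.79, adjusted p = 0.052), and by the sulfotransferase gene Ndst1 (-0.79, adjusted p = 0.127). Hs6st2 (0.97) and Hs3st1 (0.34) had positive values and overlapped. The medians were -0.45 for the carriers and -0.40 for the enzymes. After the correction for length and GC content they were -0.20 and -0.12, beside -0.11 for all genes.

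None of the 8 adaptor and effector genes passed either threshold, with a median of -0.43, and of -0.11 after the correction for length and GC content, beside -0.11 for all genes. Ptpn11, the phosphatase SHP2 (-0.47, adjusted p = 0.277), and Plcg1 (-0.55, adjusted p = 0.354) had the smallest p among lower values, and Cbl (0.35) and Frs3 (0.77) among higher ones. None of the 11 feedback and ETS target genes passed either, with a median of -0.26 that turned to 0.008 after the correction. Their values lay on both sides of 0. Spred1 (0.40, adjusted p = 0.421) and Dusp6 (0.43, adjusted p = 0.546) were the higher values with the smallest p, and Etv4 (-0.93, adjusted p = 0.485) and Il17rd (-1.15, adjusted p = 0.634) the lower ones. Of 9 genes known to act upstream of dental Fgf expression, 1 passed p under 0.05 with over 1.5-fold, again beside 19.8% of all genes. This was Fst, follistatin, an antagonist of activin, at 14.0, 9.88 and 16.7 CPM in controls and 36.0, 20.7 and 31.5 CPM in mutants (log2 fold change 1.12, adjusted p = 0.146). Msx1 (0.40) and Bmp4 (-0.34) did not pass.

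**Figure D5:**
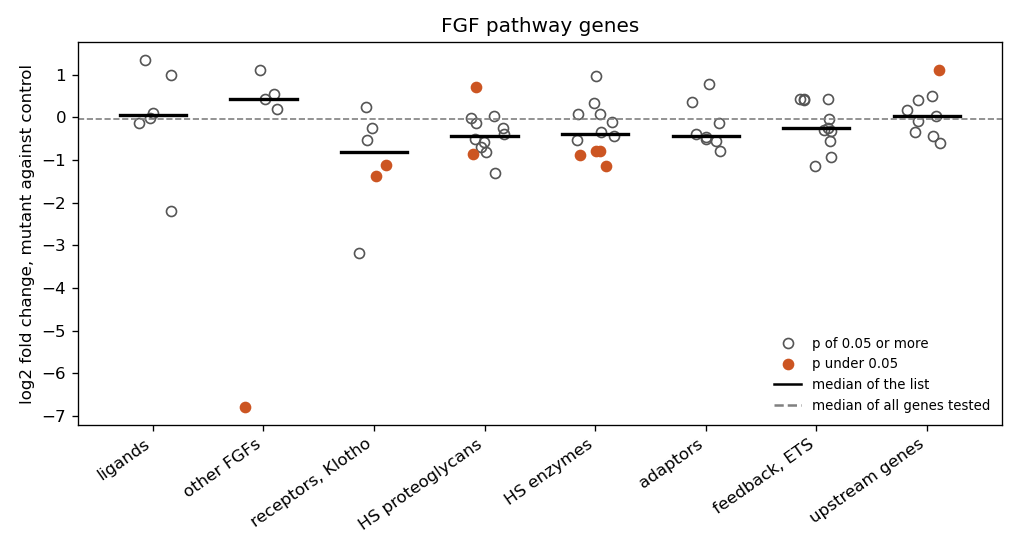
Log2 fold change of each tested gene, mutant against control (vertical axis), in the ligand list and 7 lists of the FGF pathway, filled where the unadjusted p was under 0.05, with the median of each list (black line) and of all genes tested (dashed, -0.04). No ligand is filled, the lowest point is Fgf14 with all mutants at 0, and HS stands for heparan sulfate.

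For each ligand the protein-coding genes with the most similar pattern were sought by Pearson's r of log2(CPM + 1) over the 6 samples, among those with a mean of at least 10 CPM, about 9319 genes. With 6 libraries that also differ in depth, high values arise for every ligand, so these are descriptions only. Fgf1 was closest to Mycbp2 (r = 0.991) and Mllt6 (0.9902), Fgf2 to Ehmt2 (0.999) and Cap1 (0.995), and Fgf3 to Plk4 (0.996) and S100a14 (0.987). Fgf7 was closest to Srsf5 (0.989) and Atg4c (0.981), Fgf9 to Mob1b (0.984) and Strbp (0.975), Fgf10 to Pias2 (0.997) and Fam126b (0.993), and Fgf18 to Ext2 (0.998) and Ppp2r1a (0.993). The gene closest to Fgf9, Mob1b, was at 21.5 to 28.4 CPM in controls and 36.2 to 44.0 CPM in mutants, so it too lay higher in all mutants.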

How the data were processed

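RNA sequencing of the proximal incisor was analysed in 3 control and 3 mutant samples, grouped by their titles. The authors trimmed single reads and aligned them to mm10 in Partek Flow (TopHat2 2.0.8 in the submitters' processing notes). They deposited estimated counts for each gene, filtered and not normalized. Every gene there had a count of 10 or more in its highest sample. The counting model, annotation and strand are not given in the sources used here. A second table holds the authors' own comparison (p-values, ratio and fold) and was not used. Counts were rounded. The main test was the two-sided quasi-likelihood test of edgeR (version 4.0.16, R 4.3.3), with upper-quartile scaling, a filter at a count of 10 and a total of 15, genotype alone in the model and Benjamini-Hochberg adjustment over 15826 genes. SEs are approximate, from each gene's fold change and F statistic. As alternatives, limma 3.58.1 and DESeq2 1.42.0 were run. Positions and lengths came from GENCODE M21 (GRCm38), promoters from RefSeq (GRCm38.p6). Intervals and limits cover counting error only. The test was checked on simulated data.

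The ligands and gene lists were chosen with earlier results of these data known. Besides the ligands, named genes were the other FGF family members, up to 2 higher and 2 lower genes per list by p, the 2 genes most like each ligand, and Fgfr1; Fgfr2, Barx1 and the other markers were named after their values were seen. Of the genes this rule selects, 1 is not reported here.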

Additional observations from a re-analysis of the deposited data

How the results depend on the processing

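No FGF ligand had an adjusted p under 0.05 in any of the 17 alternatives. The number past p under 0.05 with over 1.5-fold was 0 in the edgeR test and 1 with DESeq2, with limma-voom (both Fgf2) and without the filter (Fgf18), and ran from 0 to 3 with 1 library left out. Without mutant 1 the 2 were Fgf2 and Fgf18, without mutant 2 the 3 were Fgf2, Fgf7 and Fgf18, and without mutant 3 it was Fgf18. Fgf2 and Fgf9 kept their direction in every setting run. Fgf1 turned to -0.17 with total counts. Fgf3 turned to 0.11 with the length and GC correction and to 0.00022 with control counts thinned to the mutants' mean. Fgf7 turned to -1.39 with limma-voom. Fgf10 turned to 0.13 with thinned controls and 0.012 over protein-coding genes. With 1 library left out the log2 fold change ran from -0.11 to 0.35 for Fgf1, -3.44 to -1.66 for Fgf2, -1.36 to 0.42 for Fgf3, -7.18 to 1.56 for Fgf7, 1.15 to 1.69 for Fgf9 and -1.94 to 0.54 for Fgf10, and the mean log2 ratio of mutants minus controls from -1.63 to 2.02 for Fgf3 to Fgf10 and from -0.23 to 1.34 for Fgf7 to Fgf10. The cause of these turns was not tested. Samples sharing a replicate number did not deviate together (correlations 0.047, 0.009 and 0.055), so the numbers were not taken as pairs; with the replicate number as a block Fgf7 turned to -2.45, Fgf2 was -2.91 and still 0 ligands were called. Fgfr1 had an adjusted p under 0.05 with DESeq2 only (0.003).

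Scaling by total counts alone shifted the median over all genes from -0.04 to -0.30 on the log2 scale. Then 3 receptor or co-receptor genes, 5 carriers and 6 chain enzymes passed p under 0.05 with over 1.5-fold. So did 3 adaptors, 2 upstream genes and 1 other FGF gene. The length and GC correction left 1 receptor, the deleted Fgfr1, 1 carrier, 1 chain enzyme, 1 upstream gene and 1 other FGF gene. With the longest transcript the control level was 5.45 CPM per kilobase for Fgf1 and 1.36 for Fgf10. The mutants' depth limits what can be seen of Fgf7 and Fgf18, which the controls' mean would give fewer than 10 counts in every mutant.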
